A study of Mus musculus with 8 samples.

Results

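The genes described here encode the proteins of the cytosolic ribosome, measured as messenger RNA in mouse adrenal glands. They were chosen by name, as symbols of the Rpl and Rps series without paralog suffixes together with Rplp0, Rplp1, Rplp2, Rpsa and Fau, with at least 80 counts summed over all libraries. All 78 symbols that matched passed, 46 for the large and 32 for the small subunit, of 18846 genes listed. None fell below the minimum, and the members with the fewest summed counts were Rpl34 with 1623, Rpl30 with 2281 and Rpl26 with 6220. There were 8 libraries, each from 1 animal of the strain labelled 129SVEV. Siah1a-/- animals, which lack a ubiquitin ligase that marks proteins for degradation, and wild-type animals had either received adrenocorticotropic hormone (ACTH, 100 µg/kg, intraperitoneally, 1 hour before) or were untreated. In each of the 4 groups 1 animal had the sex label male and 1 the label female. Ages and the strategy of the knockout are not stated in the labels. The labels name no vehicle injection, so that the hormone and the injection cannot be told apart. By its title the study concerns how Siah1 shapes the adrenal gland and aldosterone excess.

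The cytosolic ribosome joins a small subunit, which reads the messenger RNA, and a large subunit, which forms the peptide bonds. Nearly all of their proteins are needed in equal numbers, and their genes are scattered over the genome but are usually expressed together in growing cells. In the adrenal cortex ACTH is the main pituitary signal, and ribosome production is part of the trophic response of many cells to hormones. The messenger RNAs of ribosomal proteins typically begin with a C followed by a run of pyrimidines, the terminal oligopyrimidine tract, through which their translation is controlled by the mTOR pathway. Such control acts on translation and was not measured here.

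Sequences around the annotated starts are shown to let the tract be seen in the genes on which the results below turn. They are RefSeq sequences of GRCm38.p6, with 35 bases before and 20 bases from the start on. Capitals mark the longest run of at least 8 C or T that lay at least in part within 15 bases of the start. A sequence with no capitals held no such run. Where a gene had several annotated starts, as for Rpl34 and Rpl35a, the one with the longest run is shown. The first 6 are Rps27 and Rpl38, with large genotype differences, Rps6, Rplp2, Fau and Rpl35a.
Rps27 (chr3:90213629-90213683, minus strand): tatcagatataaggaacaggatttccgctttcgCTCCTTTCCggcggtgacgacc
Rpl38 (chr11:114668545-114668599, plus strand): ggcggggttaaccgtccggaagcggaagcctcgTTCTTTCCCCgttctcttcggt
Rps6 (chr4:86857348-86857402, minus strand): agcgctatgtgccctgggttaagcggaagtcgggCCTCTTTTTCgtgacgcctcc
Rplp2 (chr7:141447616-141447670, plus strand): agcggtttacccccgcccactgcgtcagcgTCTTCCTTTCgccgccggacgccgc
Fau (chr19:6057912-6057966, plus strand): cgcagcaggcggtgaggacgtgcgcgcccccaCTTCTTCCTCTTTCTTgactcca
Rpl35a (chr16:33056447-33056501, plus strand): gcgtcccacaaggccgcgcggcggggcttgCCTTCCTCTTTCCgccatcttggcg
The next are Rps10, Rpl34, Rpl7a and Rpl41, the last 2 with the smallest genotype differences, and Rpl27. After the median of the members in each library was taken out, Rps10 varied little between libraries and Rpl34 most.
Rps10 (chr17:27635225-27635279, minus strand): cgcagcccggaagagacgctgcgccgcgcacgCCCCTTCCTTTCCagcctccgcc
Rpl34 (chr3:130730318-130730372, minus strand): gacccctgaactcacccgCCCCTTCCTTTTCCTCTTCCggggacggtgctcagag
Rpl7a (chr2:26910772-26910826, plus strand): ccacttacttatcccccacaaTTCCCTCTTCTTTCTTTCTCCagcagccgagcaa
Rpl41 (chr10:128549149-128549203, minus strand): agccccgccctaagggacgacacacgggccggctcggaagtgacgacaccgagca
Rpl27 (chr11:101442210-101442264, plus strand): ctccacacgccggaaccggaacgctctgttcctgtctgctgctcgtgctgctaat
Rpl7a, with a run of 21 bases, and Rpl41, with none, both stood at the low end of the genotype differences. Rps27, with a run of 9 bases, and Rpl27, with none, both stood at the high end. The table of promoter windows held 58 of the 78 genes, and 30 of these (51.7%) had such a run, against 5416 of all 27025 genes in it. In the whole windows of 300 bases, searched on both strands, CCGGAAG was found for 24 of 58 (41.4%) against 9.93% of all genes. CTTTCC, which can lie within a pyrimidine run, was found for 29 of 58 against 29.3% of all genes, CTCTTT, which can do the same, for 29 of 58 against 25.6%, and TATAAA for 6 of 58 (10.3%) against 15.7%. The genes with a run had a median log2 fold change by genotype of 0.55 (0.21 to 0.83), those without one 0.58 (0.19 to 0.77), and the 20 that the table lacked had 0.57 (0.37 to 0.72). These matches describe letters in these windows and show no site in use. The 78 genes lay on 20 chromosomes, with 14 on chromosome 7 and 4 on the X chromosome.

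Listed counts ranged from 8020111 to 29568950 per library, a ratio of 3.69, and the depth of the wild-type libraries spanned that whole range. The targeted gene Siah1a was still counted in the knockout, at 18.7, 17.3, 24.96 and 21.8 CPM (counts divided by the library total on a common scale, here without TMM factors) in Siah1a-/- and 33.6, 28.7, 27.9 and 27.2 CPM in wild-type libraries. The wild-type library labelled untreated male went against its label, with Xist at 411 CPM and the Y-linked Ddx3y at 3.24 CPM, so that its pair labelled male is not matched for sex. It also held kidney transcripts (10 marker genes summed to 2212 CPM, against 12.9 or less elsewhere). Liver transcripts marked the wild-type female given ACTH (60141 CPM for 10 markers, against 1182 or less elsewhere). Medians of each average comparison and of the genotype difference in each treatment are also given without these 2 libraries, with counts for the genotype comparisons.

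Ribosomal protein transcripts took up a larger share of the counts in all 4 Siah1a-/- glands than in any wild-type gland. Values are given in the order ACTH male, ACTH female, untreated male and untreated female by label, here and for the genes below. The 78 genes held 4.48%, 4.18%, 4.41% and 4.47% of listed counts in Siah1a-/- libraries, against 3.01%, 2.60%, 3.41% and 3.08% in wild-type libraries. The lowest Siah1a-/- value was above the highest wild-type value. The means were 4.39% ± 0.14 in Siah1a-/- and 3.03% ± 0.33 in wild-type libraries (SD, n = 4 each), a ratio of 1.45. The 95% binomial (Wilson) interval of each share was narrow, for example 4.17% to 4.19% in the ACTH-treated Siah1a-/- female and 3.40% to 3.42% in the wild-type library labelled untreated male. Such intervals cover counting error only. In bulk tissue, more cells rich in these transcripts and more of them per cell cannot be told apart.

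Both subunits took part. Large subunit genes held 2.57%, 2.38%, 2.53% and 2.60% of counts in Siah1a-/- and 1.76%, 1.52%, 1.98% and 1.81% in wild-type libraries, a ratio of means of 1.43. Small subunit genes held 1.91%, 1.81%, 1.88% and 1.87% in Siah1a-/- and 1.26%, 1.07%, 1.43% and 1.27% in wild-type libraries, a ratio of 1.49. Neither subunit's sums overlapped between genotypes. The log2 ratio of large to small subunit counts was 0.43 ± 0.033 in Siah1a-/- and 0.49 ± 0.021 in wild-type libraries (SD, n = 4 each). These ratios overlapped, since the untreated Siah1a-/- female at 0.48 lay above the wild-type library labelled untreated male at 0.47. In every pair matched by label, however, the ratio was lower in the Siah1a-/- animal. The difference of the means was -0.061, and -0.076 to -0.049 with 1 library left out, and it was not tested. Without the wild-type libraries with kidney or liver transcripts, the share of all 78 genes was 4.39% in Siah1a-/- and 3.05% in the remaining wild-type libraries, a ratio of 1.44. On the length-corrected scale of the deposited RPKM values (reads scaled by library depth and transcript length) the 78 genes made up 11.6% ± 0.29 of the summed RPKM in Siah1a-/- and 8.30% ± 0.87 in wild-type libraries, a ratio of 1.40.

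**Figure D1:**
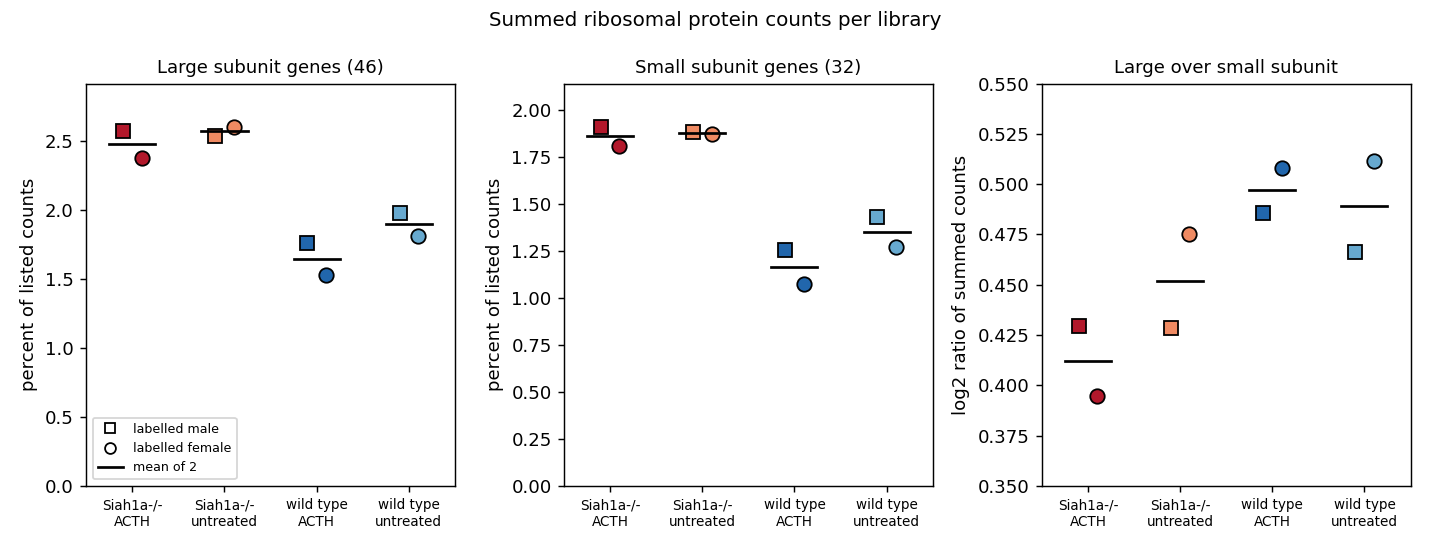
Percent of listed counts held by large and small subunit genes, and the log2 ratio of the 2 sums (axis not from 0), in each library by group. Squares are animals labelled male, circles animals labelled female, and lines the mean of 2; all Siah1a-/- shares lie above all wild-type shares, while the ratios overlap.

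Gene by gene the difference ran in one direction. All 78 genes had a positive log2 fold change of Siah1a-/- over wild type, averaged over treatments, against 46.5% of the 15361 genes tested. Their median was 0.57, with 0.55 for large and 0.60 for small subunit genes, and the median of all genes was -0.04. The values ran from 0.19 for Rpl41 to 0.83 for Rps27, and 67 of 78 lay between 0.4 and 0.8. In 72 genes, 41 large and 31 small, all 4 Siah1a-/- libraries stood above all 4 wild-type libraries, against 4.21% of all genes. In 75 genes the Siah1a-/- animal was higher in 4 of 4 pairs matched by label (10.8% of all genes), and in the other 3 genes in 3 of 4. All genes share the same 8 libraries, so these counts are not counts of independent observations, and with no record of separate litters or batches the p-values below measure the spread between these animals.

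The number of these differences that passed a test depended on the tool. None passed edgeR's quasi-likelihood test at a Benjamini-Hochberg adjusted p under 0.05, which called 0.026% of all genes (4 of 15361), and the lowest adjusted p of a ribosomal protein gene was 0.0995, for Rps19. At an unadjusted p under 0.05, 74 of 78 were higher in Siah1a-/- glands, 42 of 46 large and 32 of 32 small, where 5.33% of all genes were. DESeq2 called 66 of the 78 (37 large, 29 small), all higher in Siah1a-/- glands, against 2.21% of all genes called higher, and limma-voom called 14 (7 large, 7 small) against 0.332%. Without the wild-type libraries with kidney or liver transcripts, all 78 were still positive with a median of 0.58 (42.8% of all genes positive in that fit), and 68 reached an unadjusted p under 0.05 in edgeR (3.15% of all genes higher in that fit).

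**Figure D2:**
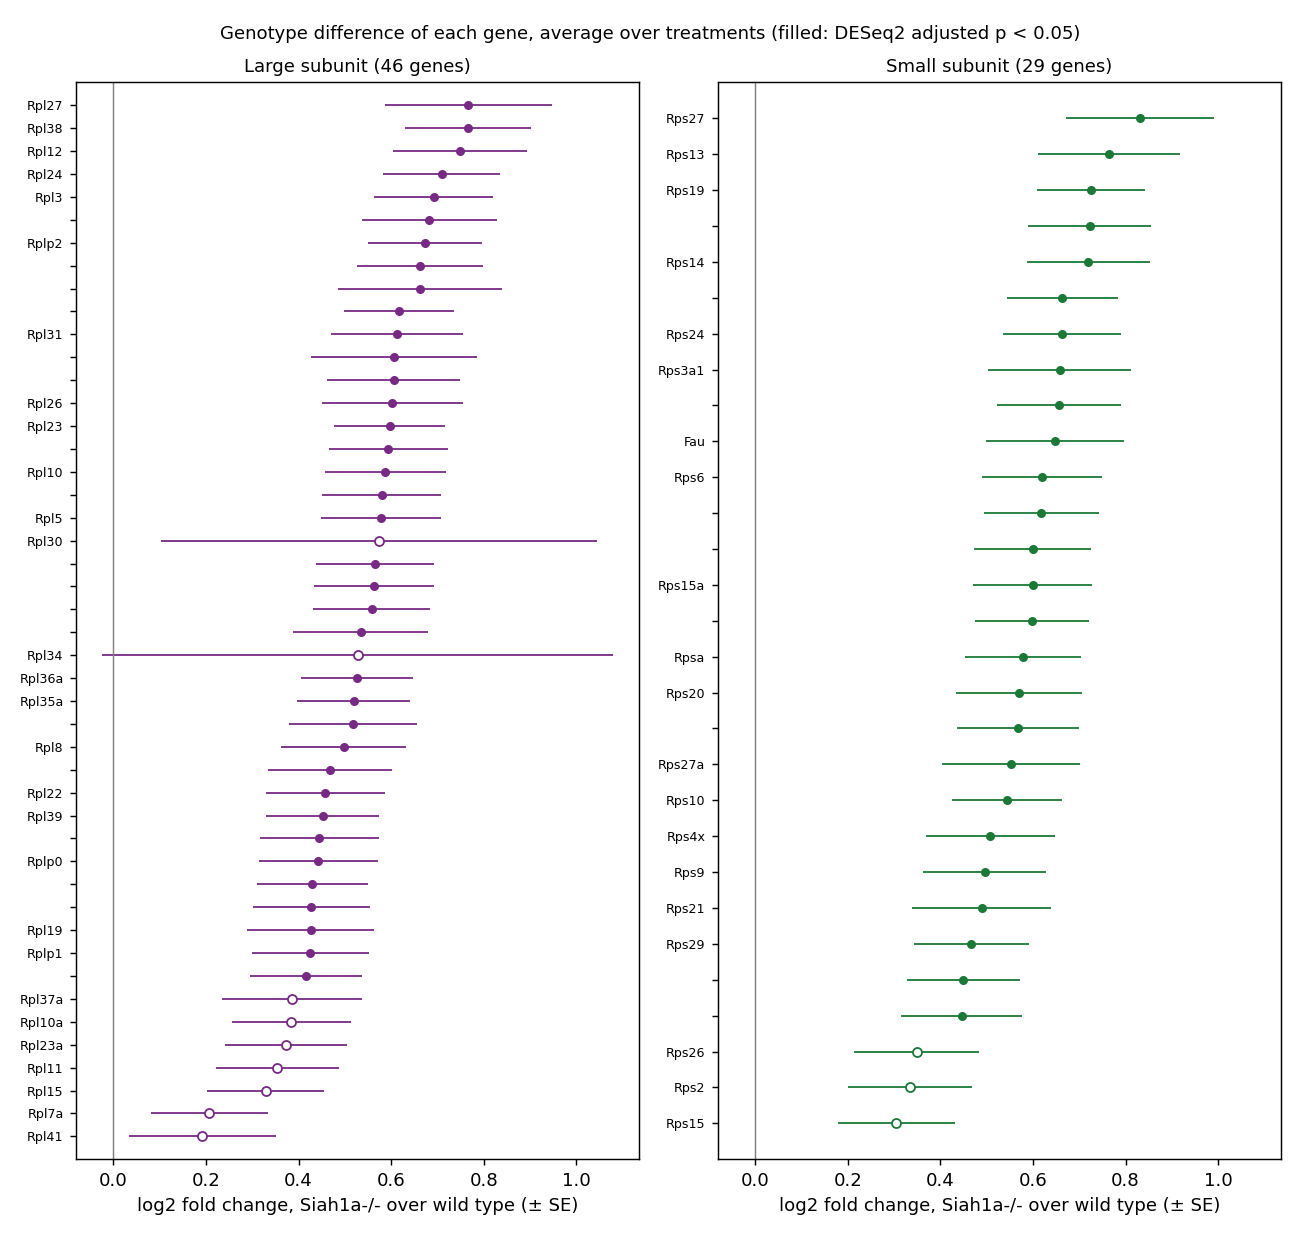
Log2 fold change of Siah1a-/- over wild type for each gene, averaged over treatments, with its standard error from edgeR. Filled points passed DESeq2 at an adjusted p under 0.05 (37 of 46 large and 26 of 29 small subunit genes drawn), open points did not, genes named in the text are labelled, and Rpl30 and Rpl34 have the widest errors.

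In the large subunit the core protein Rpl3, which lies near the peptidyl transferase centre, had 1114, 1020, 1020 and 1040 CPM in Siah1a-/- libraries, against 680, 638, 593 and 685 CPM in wild-type libraries. CPM here and below are also scaled by TMM factors, except where stated. Its groups were far apart for their spread, with a log2 fold change of 0.69 (SE 0.13, edgeR adjusted p = 0.106, DESeq2 adjusted p = 6.37e-07). Rpl27 and Rpl38 had the largest differences among large subunit genes, both 0.77. Rpl38, known in mice for a role in skeletal patterning, had 251, 211, 231 and 262 CPM in Siah1a-/- and 139, 127, 139 and 158 CPM in wild-type libraries (SE 0.14, edgeR adjusted p = 0.0997). Rpl27 had 366, 252, 323 and 282 CPM in Siah1a-/- and 196, 188, 138 and 194 CPM in wild-type libraries (SE 0.18, edgeR adjusted p = 0.155). Neither gene overlapped between genotypes.

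Rpl5 and Rpl11 assemble with the smallest ribosomal RNA and, when free, bind the p53 regulator Mdm2. Rpl5 had 1151, 1169, 1229 and 1209 CPM in Siah1a-/- and 747, 741, 933 and 775 CPM in wild-type libraries, a log2 fold change of 0.58 (SE 0.13), and did not overlap. Rpl11 had 568, 503, 572 and 560 CPM in Siah1a-/- and 392, 406, 525 and 405 CPM in wild-type libraries, a log2 fold change of 0.35 (SE 0.13). It overlapped only through the wild-type library labelled untreated male, whose 525 CPM lay above the ACTH-treated Siah1a-/- female. DESeq2 called Rpl5 (adjusted p = 0.000435) and did not call Rpl11 (adjusted p = 0.122).

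The stalk that recruits elongation factors is built on Rplp0, with Rplp1 and Rplp2 attached, and Rpl12 at its base. Rplp0 had 963 ± 51.8 CPM in Siah1a-/- and 708 ± 62.4 CPM in wild-type libraries, Rplp1 820 ± 42.2 and 612 ± 49.1 CPM, and Rplp2 375 ± 25.1 and 236 ± 17.6 CPM in the same order (SD, n = 4 each). Rpl12 had 472 ± 42.9 CPM in Siah1a-/- and 281 ± 27.7 CPM in wild-type libraries. None of the 4 overlapped between genotypes, as for 72 of all 78 members, against 4.21% of all genes. The log2 fold changes were 0.44, 0.43, 0.67 and 0.75 for Rplp0, Rplp1, Rplp2 and Rpl12 (SE 0.12 to 0.14). DESeq2 called all 4, as it did 66 of all 78 members, against 2.21% of all genes called higher. Per length, Rplp1 was the most abundant of the 78 genes, with a mean of 1292 RPKM (SD 221, n = 8), followed by Rps14 at 1208, Rps3a1 at 1034 and Rpl23a at 923 RPKM.

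The 4 members on the X chromosome showed the same direction. Rpl10, a late-joining protein of the large subunit, had 954 ± 47.3 CPM in Siah1a-/- and 635 ± 46.5 CPM in wild-type libraries (log2 fold change 0.59). Rps4x, a small subunit protein whose human counterpart escapes X inactivation, had 1041 ± 40.4 CPM in Siah1a-/- and 734 ± 83.5 CPM in wild-type libraries (0.51). Rpl36a (0.53) and Rpl39, which lines the exit tunnel (0.45), completed the set, and none of the 4 overlapped between genotypes. DESeq2 called each of them, with adjusted p from 0.000179 for Rpl10 to 0.01 for Rps4x. Of all 78 members, 72 did not overlap between genotypes, against 4.21% of all genes higher in Siah1a-/- without overlap. DESeq2 called 66 of the 78, against 2.21% of all genes called higher. These counts do not set the X-linked members apart from the other members. Rpl22, which has a close paralog in Rpl22l1, had 295 ± 29.4 CPM in Siah1a-/- and 214 ± 15.03 CPM in wild-type libraries (0.46).

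In the small subunit, Rps27 had the largest difference of all 78 genes, with 240, 175, 199 and 231 CPM in Siah1a-/- and 129, 108, 109 and 129 CPM in wild-type libraries, a log2 fold change of 0.83 (SE 0.16, edgeR adjusted p = 0.112). Its near-identical copy Rps27rt had 241 ± 35.5 CPM in Siah1a-/- and 134 ± 12.3 CPM in wild-type libraries, with a log2 fold change of 0.84. How reads with several matches were divided is not stated, so the levels of such pairs are uncertain. Rps13 followed with 472, 336, 448 and 405 CPM in Siah1a-/- and 241, 249, 222 and 263 CPM in wild-type libraries (0.76, SE 0.15).

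Among genes mutated in human Diamond-Blackfan anaemia, Rps19 had 420, 403, 395 and 364 CPM in Siah1a-/- and 259, 246, 230 and 222 CPM in wild-type libraries, a log2 fold change of 0.73 (SE 0.12), with the lowest p of the 78 genes in edgeR (unadjusted p = 0.00029) and in DESeq2 (adjusted p = 2.75e-07). Rps24 had 901 ± 63.3 CPM in Siah1a-/- and 569 ± 29.9 CPM in wild-type libraries (0.66). Rps26 had 313, 254, 283 and 318 CPM in Siah1a-/- and 212, 213, 266 and 229 CPM in wild-type libraries (0.35, SE 0.14). It overlapped through the wild-type library labelled untreated male at 266 CPM, and DESeq2 did not call it (adjusted p = 0.169). Rps29, from the same disease group, had 271 ± 24.4 CPM in Siah1a-/- and 196 ± 15.4 CPM in wild-type libraries (0.47).

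Rps6, the small subunit protein phosphorylated downstream of mTOR, had 847, 864, 926 and 746 CPM in Siah1a-/- and 554, 565, 540 and 541 CPM in wild-type libraries, a log2 fold change of 0.62 (SE 0.13). The Siah1a-/- values had an SD of 74.8 CPM and the wild-type values one of 12.2 CPM, around a mean of 550 CPM. Rpsa, which is also known as a laminin receptor, had 963 ± 78.1 CPM in Siah1a-/- and 645 ± 46.3 CPM in wild-type libraries (0.58). Rps3a1 had the highest CPM of the small subunit, 1655, 1374, 1360 and 1273 in Siah1a-/- and 777, 884, 1020 and 901 in wild-type libraries (0.66, SE 0.15). Fau and Rps27a are made as fusions to a ubiquitin-like protein and to ubiquitin. Fau had 378, 279, 341 and 331 CPM in Siah1a-/- and 187, 194, 274 and 198 CPM in wild-type libraries (0.65, SE 0.15). Rps27a had 775, 692, 709 and 841 CPM in Siah1a-/- and 463, 477, 642 and 488 CPM in wild-type libraries (0.55, SE 0.15). In both fusion genes the wild-type library labelled untreated male was the highest of its genotype and still below every Siah1a-/- library.

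The smallest differences belonged to Rpl41 (0.19), Rpl7a (0.21), Rps15 (0.31), Rpl15 (0.33), Rps2 (0.33) and Rps26 (0.35), none of which DESeq2 called. Rpl41, the smallest ribosomal protein, had 434, 378, 409 and 533 CPM in Siah1a-/- and 407, 346, 442 and 342 CPM in wild-type libraries. Its groups overlapped, and its log2 fold change was 0.04 without the untreated Siah1a-/- female and 0.10 without the untreated wild-type female. Rpl7a had 526, 503, 576 and 518 CPM in Siah1a-/- and 463, 489, 456 and 430 CPM in wild-type libraries, with no overlap (SE 0.13, unadjusted p = 0.14). Rps2 had 935 ± 66.2 CPM in Siah1a-/- and 743 ± 86.4 CPM in wild-type libraries, Rpl15 548 ± 43.6 and 436 ± 30.6 CPM, and Rps15 390 ± 25.5 and 317 ± 37.6 CPM in the same order (SD, n = 4 each). These were differences of the same sign as the rest at a lower size.

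The remaining 32 genes, 22 large and 10 small, were named only for their counts. The 22 large subunit genes had log2 fold changes from 0.38 to 0.71, and 21 of them did not overlap between genotypes, Rpl37a being the exception. DESeq2 called 20 of them, all but Rpl10a and Rpl37a. The 10 small subunit genes ran from 0.45 to 0.72, none overlapped, and DESeq2 called all 10. Of all genes, 4.21% stood higher in all 4 Siah1a-/- libraries without overlap and DESeq2 called 2.21% higher. Near the upper end, and chosen for that after the values were seen, Rpl24 had 565, 455, 515 and 497 CPM in Siah1a-/- and 311, 302, 313 and 315 CPM in wild-type libraries. The 4 wild-type libraries lay close together.

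Rpl30 and Rpl34 behaved unlike the other members. Rpl30 had 23.5, 11.3, 21.4 and 19.9 CPM in Siah1a-/- and 14.6, 23.1, 5.76 and 12.4 CPM in wild-type libraries. Rpl34 had 11.1, 17.7, 15.5 and 19.7 CPM in Siah1a-/- and 7.23, 6.80, 32.9 and 6.84 CPM in wild-type libraries. Both were the lowest of the 78 per length, at 25.3 RPKM (SD 9.13) for Rpl30 and 24.0 RPKM (SD 16.8) for Rpl34 over 8 libraries, far under the median of 501 RPKM. Many ribosomal protein genes have near-identical copies in the genome, and since the division of reads with several matches is not stated, the levels of these 2 genes are uncertain. The part of such reads in their low and variable levels was not tested. Next in that order came Rps15a at 61.3, Rpl26 at 75.7 and Rps20 at 82.98 RPKM. After the library median was taken out, the SD of log2 CPM of these 3 was 0.097, 0.092 and 0.12, near the median of all members (0.11). The log2 fold change of Rpl34 was 0.53 (SE 0.55) with all libraries and 1.18 without the wild-type library labelled untreated male (edgeR adjusted p = 0.303). It was 0.17 without the ACTH-treated Siah1a-/- female, 0.18 without the untreated wild-type female and 0.86 without the untreated Siah1a-/- male. That of Rpl30 was 0.57 (SE 0.47) with all libraries, 0.13 without the wild-type library labelled untreated male and 1.05 without the ACTH-treated Siah1a-/- female. These 2 genes and Rpl41 were the only members whose genotype difference moved by more than 1.5 times when a single library was left out.

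**Figure D3:**
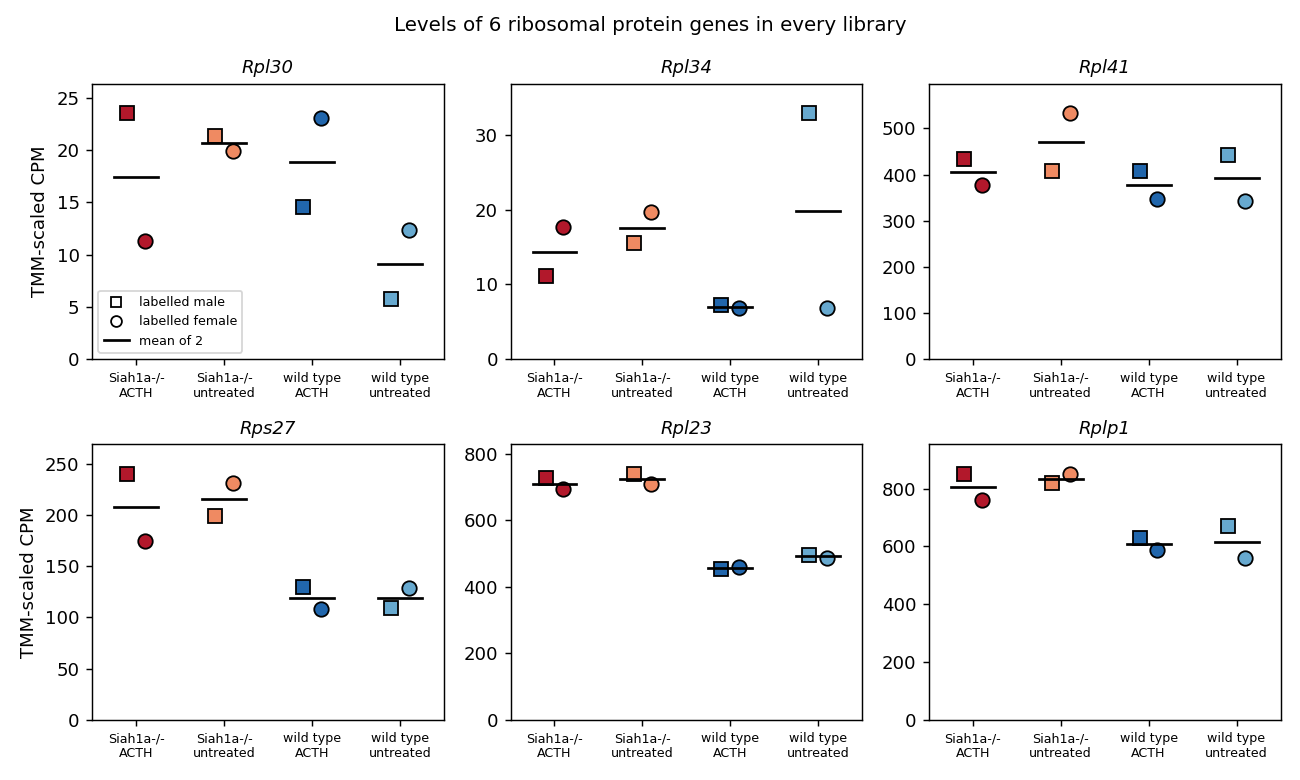
TMM-scaled CPM of Rpl30, Rpl34, Rpl41, Rps27, Rpl23 and Rplp1 in each library by group, with squares for animals labelled male, circles for animals labelled female and lines for the mean of 2. Rps27, Rpl23 and Rplp1 separate the genotypes, while Rpl30, Rpl34 and Rpl41 overlap, with Rpl34 at 32.9 CPM in the wild-type library labelled untreated male.

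Most of the spread between libraries was shared by the members, the genotype difference included. The SD of log2 CPM over the 8 libraries had a median of 0.33 over the 78 genes, and of 0.11 after the median of the members in each library was taken out. Between libraries of the same group the median of the members had an SD of 0.055, which cannot be compared with the spread of single genes. By that second measure Rpl34 (0.75), Rpl30 (0.64) and Rpl27 (0.26) varied most, and Rpl23 (0.040), Rpl35a (0.047) and Rps10 (0.059) least. Rpl23 had 727, 693, 740 and 709 CPM in Siah1a-/- and 454, 461, 497 and 486 CPM in wild-type libraries. In the Siah1a-/- libraries 77, 71, 78 and 78 of the 78 genes stood above their own mean over all libraries, and in the wild-type libraries 0, 1, 13 and 0 did. The median deviation from the gene's mean was 0.32, 0.20, 0.30 and 0.28 in Siah1a-/- and -0.30, -0.32, -0.20 and -0.29 in wild-type libraries on the log2 scale. The 13 genes above their mean in the wild-type library labelled untreated male included Rpl34, Rpl11 and Fau, and the span between the lower and upper quartile of its deviations was the widest of the 8, from -0.34 to -0.04.

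**Figure D4:**
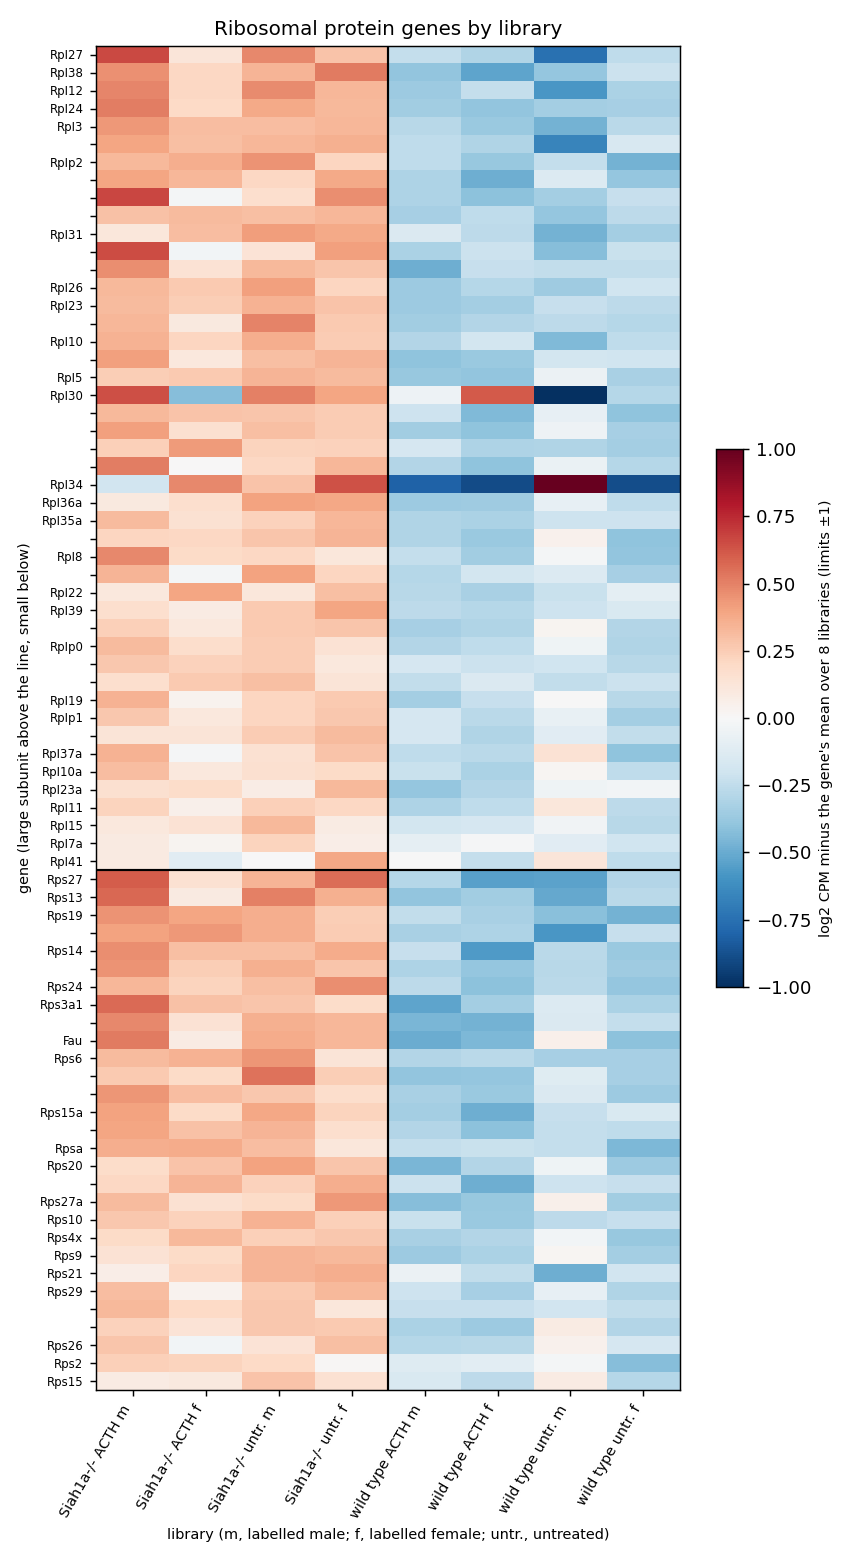
Log2 CPM of each gene minus its mean over the 8 libraries (color scale limited at ±1), with large subunit genes above the line, small subunit genes below it, genes ordered by genotype difference within each, 75 of 78 genes drawn, and those named in the text labelled. Siah1a-/- libraries on the left are mostly above the mean (71 to 78 of all 78 genes each) and wild-type libraries mostly below it, with the wild-type library labelled untreated male the most mixed (13 of all 78 above).

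The difference was present in each treatment. The comparisons within a treatment come from a model with a genotype by treatment interaction and set 2 animals against 2. Among untreated animals the share was 4.44% in Siah1a-/- and 3.25% in wild-type libraries (ratio 1.37), the median log2 fold change was 0.52 and 77 of 78 genes were positive (50.1% of all genes). After ACTH it was 4.33% in Siah1a-/- and 2.81% in wild-type libraries (ratio 1.55), with a median of 0.61 and 77 of 78 positive (44.8% of all genes). edgeR called none in either treatment (0% of all genes untreated, 0.00651% after ACTH). At an unadjusted p under 0.05 it found 45 untreated (2.2% of all genes higher in Siah1a-/-) and 56 after ACTH (2.81%). Both counts fell when any 1 library was left out, and such fits have fewer residual degrees of freedom. The share of all genes was not set beside those counts, so the fall is not read as a result about the members. In those fits the median stayed between 0.47 and 0.55 untreated and between 0.53 and 0.61 after ACTH. Without both libraries with kidney or liver transcripts, which leaves 1 wild-type library in each treatment and 1 residual degree of freedom, 1 gene was counted untreated (0.521% of all genes higher in that fit) and 9 after ACTH (1.75%). In that fit 78 genes were positive untreated (49.8% of all genes), with a median of 0.53, and 77 after ACTH (45.4%), with a median of 0.62. DESeq2 called 14 untreated (0.28%) and 34 after ACTH (1.05%), and limma-voom 0 in both (0% of all genes called higher).

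Among untreated animals the largest values were those of Rpl30 (1.21, SE 0.61), Rps27 (0.86, SE 0.25) and Rpl27 (0.86, SE 0.28), and the smallest those of Rpl34 (-0.06, SE 0.77), Rpl23a (0.24, SE 0.20) and Rpl41 (0.28, SE 0.25). After ACTH they were Rpl34 (1.07, SE 0.75), Rps3a1 (0.86, SE 0.22) and Rps27 (0.80, SE 0.25) at the top, and Rpl30 (-0.07, SE 0.60), Rpl41 (0.11, SE 0.25) and Rpl7a (0.11, SE 0.20) at the bottom. Rps27 was thus among the 3 largest in both treatments, and Rpl41 among the 3 smallest. The difference between the treatments was tested by the interaction. Its median over the 78 genes was 0.04, with 50 positive (44.3% of all genes), and no gene reached an unadjusted p under 0.05 (1.84% of all genes) or was called by edgeR (0% of all genes), DESeq2 (0.0521%) or limma-voom (0%). The extremes were Rpl34 (1.13, SE 1.06), Rps3a1 (0.40, SE 0.32) and Rpl23a (0.27, SE 0.28), and at the other end Rpl30 (-1.28, SE 0.84), Rps21 (-0.40, SE 0.29) and Rpl31 (-0.39, SE 0.28).

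At 1 hour after ACTH the ribosomal protein genes stood close to their untreated levels. The 78 genes held 3.57% ± 0.91 of counts in ACTH-treated and 3.85% ± 0.70 in untreated libraries (SD, n = 4 each). Their median log2 fold change was -0.04, against 0.02 for all genes, and 75 of 78 lay within 0.2 of 0. Of the 78, 54 were negative (47.8% of all genes). Neither edgeR (0.0195% of all genes called), DESeq2 (0.801%) nor limma-voom (0.0195%) called a member, and none reached an unadjusted p under 0.05 in edgeR, where 6.11% of all genes did. In 11 genes the ACTH-treated animal was lower in 4 of 4 matched pairs (7.95% of all genes), and in 5 it was higher in 4 of 4 (8.14%). Without the wild-type libraries with kidney or liver transcripts, a fit with 2 residual degrees of freedom, the median was -0.06.

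Most single members differed little by treatment, while Rpl34 and Rpl30 had larger values with wide errors. The lowest were Rpl34 (-0.83, SE 0.54), Rpl36a (-0.23, SE 0.12), Rps9 (-0.17, SE 0.13), Rps27a (-0.17, SE 0.15), Fau (-0.17, SE 0.15) and Rpl23a (-0.17, SE 0.13). Among the highest were Rpl30 (0.42, SE 0.46), Rps19 (0.14, SE 0.12), Rpsa (0.14, SE 0.13), Rps2 (0.11, SE 0.13) and Rpl27 (0.11, SE 0.18). Within Siah1a-/- animals the median was -0.03, with 46 negative (51.3% of all genes), and within wild-type animals -0.08, with 55 negative (45.2% of all genes). No member was called within either genotype by edgeR (0% of all genes in each), DESeq2 (0.638% of all genes within Siah1a-/-, 0.241% within wild type) or limma-voom (0% and 0.0195%), and none reached an unadjusted p under 0.05 in edgeR (4.22% of all genes within Siah1a-/-, 2.56% within wild type). Within Siah1a-/- animals the extremes were Rps3a1 (0.20), Rpl8 (0.17) and Rpsa (0.16), and Rpl34 (-0.28), Rpl36a (-0.26) and Rpl41 (-0.23). Within wild-type animals Rpl30 (1.06) and Rpl31 (0.20) were among the highest, and the lowest were Rpl34 (-1.41), Rpl23a (-0.30) and Fau (-0.29).

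**Figure D5:**
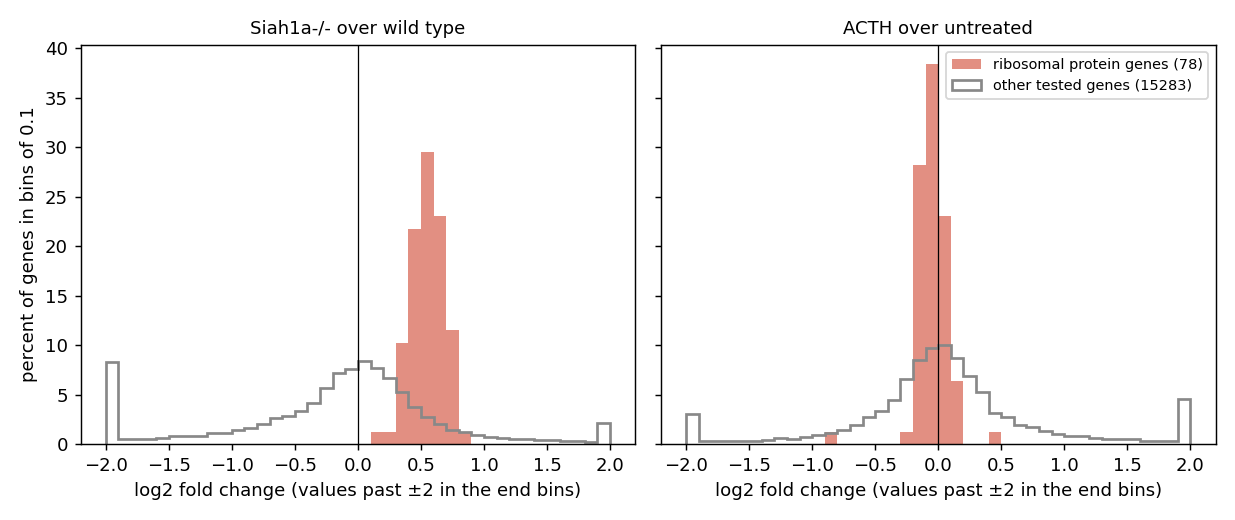
Distribution of log2 fold changes (percent of genes in bins of 0.1) for the 78 ribosomal protein genes, filled, and the other 15283 tested genes, outline, by genotype on the left and by treatment on the right. The ribosomal protein genes center at 0.57 by genotype and at -0.04 by treatment.

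By the sex label, female over male, the median was -0.08 and 64 of 78 genes were negative (44.3% of all genes). No member was called by edgeR (0.026% of all genes), DESeq2 (0.137%) or limma-voom (0%) or reached an unadjusted p under 0.05 in edgeR (3.11% of all genes). The lowest were Rpl34 (-0.37, SE 0.56), Fau (-0.23, SE 0.15) and Rpl8 (-0.22, SE 0.13), and the highest Rpl30 (0.18, SE 0.46), Rpl22 (0.14, SE 0.13) and Rpl23a (0.09, SE 0.13). Since 1 library labelled male went against its label, these values describe the labels. Without the wild-type libraries with kidney or liver transcripts the median was -0.07.

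Other genes of the ribosome were counted by lists of the pathway, with the genotype average as the comparison. edgeR called none of them, and the counts that follow are of an unadjusted p under 0.05, all higher in Siah1a-/- glands, where 5.33% of all genes were higher at that p and 0.026% were called by edgeR. Of the ribosomal protein paralogs and ubiquitin fusions, 4 of 9 tested did (median log2 fold change 0.44). Rpl36al had 292 ± 51.4 CPM in Siah1a-/- and 218 ± 35.1 CPM in wild-type libraries. Of factors that sit on the ribosome, 5 of 10 did (median 0.39). Rack1, the signalling scaffold of the small subunit, had 702 ± 77.9 CPM in Siah1a-/- and 471 ± 26.9 CPM in wild-type libraries, and Naca, which binds nascent chains, 550 ± 23.2 and 398 ± 17.8 CPM in the same order. Other messenger RNAs with a pyrimidine tract had a median of 0.30, with 7 of 16. Eef1a1, the elongation factor that delivers aminoacyl-tRNA, had 8001 ± 294 CPM in Siah1a-/- and 6394 ± 278 CPM in wild-type libraries (log2 fold change 0.32), and Tpt1 2491 ± 206 and 1735 ± 55.5 CPM (0.52).

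Factors that assemble the large subunit had a median of 0.39, with 11 of 35 at an unadjusted p under 0.05, and those of the small subunit 0.17, with 6 of 34. Among the large subunit factors, Nsa2 had 214 ± 13.2 CPM in Siah1a-/- and 139 ± 12.7 CPM in wild-type libraries (0.62). Nucleolar core and small nucleolar ribonucleoprotein genes had a median of 0.28, with 1 of 14, nucleolin (Ncl), at 852 ± 104 CPM in Siah1a-/- and 642 ± 49.0 CPM in wild-type libraries. Npm1 had 654 ± 67.3 and 543 ± 41.5 CPM in the same order and did not reach it. The subunits of RNA polymerase I and its factors, which make the precursor of ribosomal RNA, had a median of 0.03, with 1 of 19, and regulators of the mTOR and MYC pathways a median of 0.02, with 1 of 18. The counts of 1 in the nucleolar, polymerase I and regulator lists are near the share of all genes (5.33%). DESeq2 called 3, 3, 2, 6, 1, 1, 0 and 0 genes of these lists, all higher in Siah1a-/- glands, in the order paralogs, ribosome-bound factors, other tract messenger RNAs, large and small subunit assembly, nucleolar core, polymerase I, and regulators. It called 2.21% of all genes higher, a share that the count of 1 of 34 in small subunit assembly is near. In the nucleolar core the count of 1 of 14 rests on a single gene.

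Gene length and level were set beside the genotype difference, a check added after the values were seen. The other genes were divided into 4 equal bins by length and again by level. Of the 78 genes, 70 lay in the range of the shortest bin and 75 in that of the most abundant bin. The other genes of the shortest bin had a median log2 fold change of -0.03, and those of the most abundant bin 0.06. Both bins were wide, reaching up to 2129 bases (estimated from counts and RPKM) and down to 58.5 CPM. The members had a median of 419 CPM. Genes both short and abundant were not set apart, so the part of length and level was not tested. Markers of other cells of the gland were summed beside these values, and all sums that follow are CPM without TMM factors. Markers of adrenal cortex (10 of 10 listed in the files, none at 0 throughout) ranged from 45687 to 63758 CPM in Siah1a-/- and from 32755 to 52704 CPM in wild-type libraries. Those of the chromaffin medulla (10 of 10) ranged from 1864 to 7613 CPM in Siah1a-/- and from 2209 to 4209 CPM in wild-type libraries, and those of neurons (10 of 10) from 371 to 1659 CPM in Siah1a-/- and from 387 to 742 CPM in wild-type libraries. All 3 ranges overlapped, each only through the ACTH-treated Siah1a-/- female (45687, 1864 and 371 CPM in that order). Every other Siah1a-/- library stood above all wild-type libraries, with lowest values of 54471, 6397 and 918 CPM. The lowest wild-type cortex sums, 32755 and 33169 CPM, were those of the libraries with kidney and liver transcripts. Gene by gene, the genotype difference was positive for 9 of 10 cortex markers (median 0.52, 4 at an unadjusted p under 0.05 in edgeR). It was positive for 9 of 10 chromaffin markers (median 1.03, 5 at that p) and 10 of 10 neuron markers (median 1.71, 3 at that p). DESeq2 called 4, 2 and 3 of these markers higher. Of all genes, 46.5% were positive, 5.33% were higher at that p and DESeq2 called 2.21% higher. The medians of these 3 lists were near or above the 0.57 of the ribosomal protein genes. The part of these cells in the ribosomal protein differences was not tested. Nuclear and small RNAs had 1 of 6 tested genes positive, with a median of -0.36, and their sums ran from 6578 to 11742 CPM in Siah1a-/- and from 8350 to 13652 CPM in wild-type libraries. Summed adipocyte markers ran from 2647 to 7860 CPM in Siah1a-/- and from 2810 to 7899 CPM in wild-type libraries, with 3 of 10 positive and a median of -0.73. The adrenal identity of the libraries was plain from Star, the cholesterol carrier of steroid-making cells, at 10600 CPM (without TMM factors) or more in every library.

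Most members were listed with a single transcript (66 of 78). Of the 12 with more, the highest transcript of Rps24 took 40.8% to 64.5% of the gene's counts, and that of Fau 41.8% to 79.0%. The ends of the Fau range were the untreated Siah1a-/- male at 41.8% and the wild-type library labelled untreated male at 79.0%. For Rpl19 and Rpl35a, the lowest shares of the highest transcript were 52.1% and 57.6%, and the highest 71.5% and 82.0%. The most variable genes by level were also those with the most variable transcript shares, at 35.4% to 99.4% for Rpl30 and 14.7% to 99.8% for Rpl34. The division of reads between transcripts is an estimate made before deposit.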

How the data were processed

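RNA of 8 adrenal glands was sequenced in single reads of 75 bases from directional libraries, per the labels' protocols. FastQC 0.11, TopHat2 2.0.13, Bowtie2 2.2.5.0, Partek 6.6 and mm10 are named in the submitters' processing notes, with no settings. Per the file headers, the authors deposited estimated counts, which need not be whole, and RPKM values for RefSeq transcripts. Strand handling and the handling of reads with several matches are not given in the sources used here.

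Here the estimated counts of 28678 transcripts were summed per symbol to 18846 genes and rounded. The edgeR quasi-likelihood test (edgeR 4.0.16, R 4.3.3, TMM factors 0.888 to 1.065) was run on the 15361 genes kept by filterByExpr (minimum count 10), all 78 members among them. Genotype, treatment and sex label were terms (4 residual degrees of freedom), with an interaction for comparisons within a treatment or genotype (3 residual degrees of freedom). Standard errors follow from the fold change and its F value. P-values were adjusted over all genes, by Benjamini-Hochberg, and called under 0.05. Fits with DESeq2 1.42.0, limma-voom (limma 3.58.1) and the other alternatives are given in the closing section. Scripts were tested on simulated data.

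The members, the pathway and marker lists and the rule for named genes were chosen with earlier results of these data known. Some single genes are not reported here, and they stay in the counts and medians. The rule took a fixed set of members, the highest and lowest by fold change (6 each for the genotype and treatment averages, 3 each for the other comparisons), the 5 highest and 5 lowest by RPKM, the 3 most and 3 least variable, and up to 4 called genes, or else the 2 most abundant, of each pathway list. Positions and promoter sequences came from RefSeq GRCm38.p6, in which all 78 symbols had a position.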

Additional observations from a re-analysis of the deposited data

Results flagged for a closer look

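In groups of 4 libraries of a genotype, 100 sets of values were checked for a single library far from the rest, by the ratio of its gap to the range (Dixon), and 8 were past the critical value for 4 samples. Chance alone flags about 1 in 20 groups. All 8 were among the wild-type libraries. The highest wild-type library stood apart for Fau at 274 CPM, Rpl11 at 525 CPM, Rpl34 at 32.9 CPM, Rplp0 at 801 CPM, Rps27a at 642 CPM and Rps9 at 528 CPM. The lowest wild-type library stood apart for Rpl27 at 138 CPM and Rpsa at 575 CPM. The library that stood apart was the one labelled untreated male for all of these genes except Rpsa, where it was the untreated wild-type female. Rpl34 had the highest ratio, 0.984. The shares of counts and the ratio of large to small subunit sums held no such library, and no interaction of a member passed its test.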

How the results depend on the processing

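The median genotype difference of the 78 genes stayed between 0.54 and 0.57 when any 1 library was left out and between 0.56 and 0.58 under the other settings, all 78 genes staying positive in DESeq2 and limma-voom. The count of members called by edgeR was 0 under each edgeR setting, with a lowest adjusted p of 0.0590 without the untreated wild-type female and 0.0613 in its robust fit, against 66 in DESeq2 and 14 in limma-voom for the genotype average, and 14 untreated and 34 after ACTH in DESeq2. The causes of the changes below were not tested. The fewest counts were those of Rpl34 and Rpl30 (1623 and 2281 summed), and the part of depth in their spread was not tested. The design of 2 animals a group limits every comparison within a treatment or genotype. The labels give no replicate numbers. With animals matched by label as a block, a setting added after the data were seen, the genotype median was 0.57 with 0 members called, and 69 of all genes were called by genotype and 10 by treatment.

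With library totals in place of TMM factors the medians were -0.13 by treatment, 0.16 for the interaction, 0.46 untreated and 0.66 after ACTH by genotype, and -0.23 within wild type by treatment. The difference in summed share, 1.36 percentage points, was 3.31 on summed RPKM, where shares are larger in both genotypes, and 1.22 to 1.49 with 1 library left out. Counts of all genes called moved further. By genotype, where edgeR called 4, they were 7 with library totals, 41 with no filter, 947 in DESeq2, 108 in limma-voom, 22 in the robust fit, 1 without the sex term, 1 with the highest transcript only, and 0 to 253 with 1 library left out (the highest without the untreated wild-type female). By treatment (3) they were 8 with no filter, 123 in DESeq2, 5 in the robust fit, 0 without the sex term, with the interaction or without the wild-type libraries with kidney or liver transcripts, 1 with the highest transcript only, and 0 to 23. By sex label (4) they were 7 with no filter, 21 in DESeq2, 0 in limma-voom, 7 without those 2 libraries, 2 with the highest transcript only, and 1 to 25. For the interaction (0) they were 8 in DESeq2, 2 without those libraries, and 0 to 11. Untreated by genotype (0) they were 110 in DESeq2, 27 with the 4 libraries alone, and 0 to 95. After ACTH by genotype (1) they were 2 with library totals, 11 with no filter, 501 in DESeq2, 13 in limma-voom, 3 in the robust fit, 0 without the sex term, 26 with the 4 libraries alone, 21 without those 2 libraries, 0 with the highest transcript only, and 0 to 173. Within wild type by treatment (0) they were 7 with no filter, 37 in DESeq2, 3 in limma-voom, 1 in the robust fit, and 0 to 70. Within Siah1a-/- by treatment (0) they were 98 in DESeq2, 1 with the 4 libraries alone and 2 without those 2 libraries. With 1 library left out, the medians ranged from -0.06 to -0.03 by treatment, 0.47 to 0.55 untreated and 0.53 to 0.61 after ACTH by genotype, -0.09 to -0.04 within wild type and -0.071 to 0.034 within Siah1a-/- by treatment, and 0.01 to 0.08 for the interaction.

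No named genotype average changed sign under any setting run, and the other sign changes were of values that passed no test. Without the wild-type libraries with kidney or liver transcripts, Rpl27 was at -0.079 and Rpl30 at -0.34 by treatment, Rpl30 at -0.34 and Rpl34 at 0.59 within wild type, Rpl30 at 0.47, Rpl41 at -0.054 after ACTH and Rpl34 at 1.61 untreated by genotype, Rpl30 at 0.0053 and Rpl34 at -0.91 for the interaction, and Rpl30 at -0.58 and Rpl34 at 0.28 by sex label. With the highest transcript only, Rpl30 was at 0.56 after ACTH by genotype and -0.015 by sex label, and Rpl34 at 0.93 within Siah1a-/- by treatment. In limma-voom Rpl30 was at -0.027 by sex label and Rpl34 at 0.42 untreated by genotype, and with the 4 libraries alone at 0.21. With 1 library left out, Rpl27 ranged from -0.046 to 0.26 by treatment, Rpl30 from -0.998 to 0.62 after ACTH by genotype and from -0.21 to 0.60 by sex label, and Rpl34 from -1.04 to 0.25 within Siah1a-/-, from -2.37 to 0.20 within wild type, from -1.07 to 1.503 untreated by genotype, from -0.51 to 2.06 for the interaction and from -0.69 to 0.24 by sex label. Rpl41 ranged from -0.53 to 0.12 within Siah1a-/- and from -0.065 to 0.58 untreated by genotype.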
